A study of Mus musculus with 64 samples.

Results

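The sarcoplasmic reticulum calcium cycling genes are 10 genes whose proteins release, store, take up or remove calcium at each beat of a heart muscle cell. They were chosen by name from the calcium cycling machinery, with earlier results of these data known. They are Ryr2, Casq2, Trdn, Jph2, Fkbp1b, Hrc, Atp2a2, Pln, Slc8a1 and Camk2d, 10 of the 16913 genes in the deposited table of counts, and all 10 passed the filter on low counts. Bulk RNA was sequenced from hearts of C57BL/6J mice that either carried a mutant cardiac troponin T with the deletion named cTnT-delta160E (TG) or did not (nTG). This allele is studied as a model of hypertrophic cardiomyopathy. Mice of each genotype either remained sedentary or ran on a treadmill in high intensity interval training (HIIT) for 6 weeks, in 3 sessions a week of 31 minutes each. Males and females were kept apart, which gives 8 groups and 64 libraries. The groups were sedentary nTG males (7 libraries), trained nTG males (8), sedentary TG males (9), trained TG males (8), sedentary nTG females (8), trained nTG females (10), sedentary TG females (8) and trained TG females (6). The promoter of the transgene, the age of the mice and the day of each extraction are not given in the sources used here. The labels do not say that each library is a separate animal beyond a replicate number, so the p-values measure the spread between these libraries.

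In a heart muscle cell, calcium that enters through the sarcolemma opens the ryanodine receptor and releases a larger store from the sarcoplasmic reticulum, which starts contraction. Relaxation follows when the calcium pump SERCA2a, held back by phospholamban until that protein is phosphorylated, returns calcium to the store, and the sodium-calcium exchanger removes the rest from the cell. Calcium-binding proteins and anchors in the lumen and at the junction with the sarcolemma set how much calcium is stored and how readily it is released, and the pathway is known for altered gene expression in hypertrophied and failing hearts.

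The column names of the gene counts could not be used as they stood, and this touches every result below. With columns taken by name, sex-linked genes or Tnnt2, the gene of cardiac troponin T, went against the label in 45 of the 64 libraries. Each library therefore took the gene column with the highest correlation to its column in a second deposited table, of long noncoding RNAs, over 389 autosomal transcripts that both tables hold. The best correlation was 0.599 to 0.863 and the next best at most 0.404, every library got a different column, and only 1 library kept the column of its own name. In this order 0 libraries went against their sex or genotype, and Tnnt2, which is not among the matched transcripts, was at 2665 to 3428 CPM (counts scaled to a library total of 1000000) in nTG and at 6903 to 12001 CPM in TG libraries. Counts of the transgene and the mouse's own Tnnt2 cannot be told apart in that value. With columns by name, 0 of the 30 member results that pass the test below passed. The libraries held 34574813 to 67068562 counts each, of which 13.4% to 20.4% were from mitochondrially encoded genes. All 8 cardiomyocyte markers checked were present at 1281 CPM or more in every library, as in heart muscle. In bulk tissue, fewer cells of a type and less RNA per cell cannot be told apart.

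The members spanned a wide range of abundance. Given per kilobase of the gene's merged exons, as the median over the 64 libraries of a scaled CPM, Atp2a2 was highest at 2948, followed by Pln at 749, Hrc at 280.0 and Jph2 at 210.4. Ryr2 was at 176 and Casq2 at 174. Slc8a1 followed at 38.5, Trdn at 12.3 and Camk2d at 7.58. Fkbp1b, which encodes the calstabin FKBP12.6 that binds the ryanodine receptor, was at 0.390, with only 2 to 39 counts per library. In this order the libraries' ranges overlapped between Hrc and Jph2, between Jph2 and Ryr2 and between Ryr2 and Casq2, and between no other neighbours. Every other member had at least 3516 counts in every library, so counting error is small beside the spread between libraries for 9 of the 10. From here on, CPM values use the library total after TMM scaling, and folds are on the log2 scale with their standard error (SE).

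**Figure D1:**
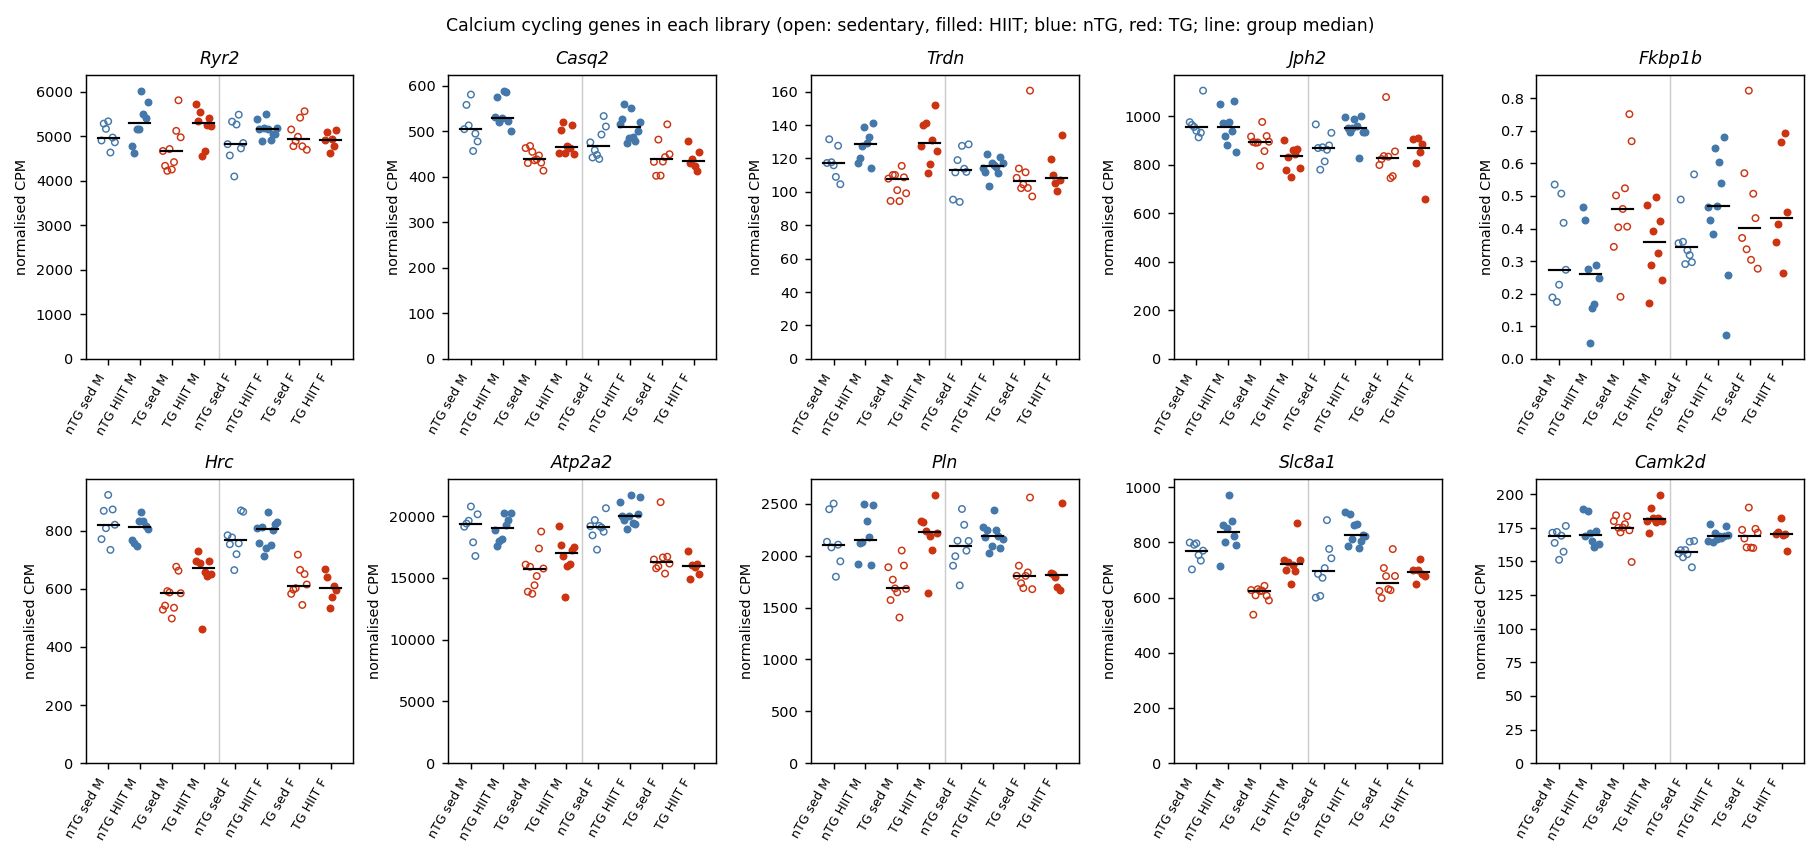
Normalised counts in CPM (vertical axis, starting at 0) of the 10 genes in each of the 64 libraries, by group on the horizontal axis, with a line at each group's median. The median of Hrc lies lower in the red TG groups than in the blue nTG groups in both sexes and both activities, while Ryr2 overlaps across all 8 groups.

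Genotype was compared within each sex and activity, so the groups of the 4 comparisons share no library. The estimate of spread came from a single model over all 64 libraries, so their SE and p-values are not fully separate. A gene passed where its adjusted p in edgeR's quasi-likelihood test was under 0.05, adjusted over all 16913 genes. In sedentary males 5 of the 10 members passed, against 20.6% of all genes, and all 5 were lower in TG. Trained males also had 5 members pass, all lower, against 14% of all genes. Sedentary females had 2 members pass, both lower, against 4.37% of all genes, and trained females had 5, all lower, against 14.8%. These shares count both directions, and 1900, 1405, 471 and 1595 of the 16913 genes passed and were lower in TG. Apart from Fkbp1b, each member's median CPM was above that of at least 93.27% of all genes. The members were not compared with genes of like abundance. The median log2 fold change of the members was -0.19, -0.10, -0.07 and -0.20 in these 4 comparisons in the same order, where the median of all genes was -0.01, 0.01, 0.00 and 0.00. Averaged over the 4 comparisons, 7 members passed against 39% of all genes, and 6 of the 7 were lower in TG, against 20.5% of all genes that passed and were lower. Atp2a2, Hrc, Casq2 and Slc8a1 were lower in at least 3 of the 4 comparisons, and 4.19% of all genes were.

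The promoters of Hrc, Casq2 and Slc8a1, 3 of these 4 genes, are shown, with that of Pln, which rose with training in TG males. The sequences are the 250 bases before the gene's start in RefSeq (GRCm38.p6), read 5′ to 3′ on the gene's strand. Of the 10 members 8 were matched, all but Atp2a2 and Trdn. The gene positions printed below are from GENCODE and can start elsewhere. The Pln window ends at 53337685, past the GENCODE start of Pln at 53337667. Capitals mark matches on either strand to the MEF2 site, the CArG box, the MCAT element GGAATG, the E-box CANNTG, the GC box GGGCGG or the GATA motif AGATAA, and no match overlaps another in the printed windows. Hrc is at chr7:45335019-45335268 on the plus strand, Casq2 at chr3:102086165-102086414 on the plus strand, Slc8a1 at chr17:81738388-81738637 on the minus strand and Pln at chr10:53337436-53337685 on the plus strand.
Hrc: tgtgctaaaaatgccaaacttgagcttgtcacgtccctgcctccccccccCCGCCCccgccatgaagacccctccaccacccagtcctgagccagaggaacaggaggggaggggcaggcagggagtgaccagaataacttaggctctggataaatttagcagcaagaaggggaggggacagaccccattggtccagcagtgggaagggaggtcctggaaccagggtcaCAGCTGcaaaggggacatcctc
Casq2: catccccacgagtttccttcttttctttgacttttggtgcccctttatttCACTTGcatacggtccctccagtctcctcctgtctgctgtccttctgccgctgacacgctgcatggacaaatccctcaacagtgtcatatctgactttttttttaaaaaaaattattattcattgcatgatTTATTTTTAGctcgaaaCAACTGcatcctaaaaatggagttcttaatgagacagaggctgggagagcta
Slc8a1: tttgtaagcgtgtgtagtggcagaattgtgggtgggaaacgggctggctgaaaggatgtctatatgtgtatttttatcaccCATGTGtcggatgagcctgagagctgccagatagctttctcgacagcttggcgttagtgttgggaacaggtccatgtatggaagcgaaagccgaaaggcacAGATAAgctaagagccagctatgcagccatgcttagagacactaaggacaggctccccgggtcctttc
Pln: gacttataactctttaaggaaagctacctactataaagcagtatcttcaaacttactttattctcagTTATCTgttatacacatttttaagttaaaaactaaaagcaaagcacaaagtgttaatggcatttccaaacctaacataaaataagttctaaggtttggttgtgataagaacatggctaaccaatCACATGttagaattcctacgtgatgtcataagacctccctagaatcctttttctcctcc
The MEF2 site, bound by a factor of muscle genes, occurred in Casq2 alone of the 8 members, where it starts 69 bases before the gene's start, and in 2.92% of all 32851 windows of this length. The E-box occurred in 6 of the 8 and in 66.2% of all windows. The GC box occurred in 4 of the 8 and in 32.7%, and the GATA motif in 2, Slc8a1 and Pln, and in 9.99%. The MCAT element, in 12.6% of all windows, and the CArG box, in 1.47%, were in none of the 8. A match is a stretch of letters, and no binding was measured. The GC content of these windows ran from 32.8% in Pln to 59.6% in Hrc among the 4 shown.

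Hrc encodes the histidine-rich calcium-binding protein of the sarcoplasmic reticulum lumen, which links the store to triadin and the pump (chr7:45335290-45338974, plus strand). It was lower in TG in all 4 comparisons. In sedentary males its lowest, median and highest values were 734, 821 and 923 CPM in nTG and 498, 585 and 676 CPM in TG. All 9 TG libraries were below all 7 nTG libraries. Its log2 fold change was -0.52 ± 0.06 (SE), a level 30.2% lower, with an edgeR adjusted p of 1.81e-08. In trained males it was at 746, 811 and 863 CPM in nTG and 462, 673 and 731 CPM in TG. The groups again did not overlap, and the change was -0.30 ± 0.06 with an edgeR adjusted p of 0.00059. In sedentary females it was at 664, 767 and 869.9 CPM in nTG and 545, 609 and 718 CPM in TG. Here 6 of the 8 TG libraries were below all nTG libraries, and the change was -0.32 ± 0.06 with an edgeR adjusted p of 0.000752. In trained females it was at 714, 805 and 863 CPM in nTG and 535, 603 and 669 CPM in TG. Those groups did not overlap, and the change was -0.39 ± 0.07 with an edgeR adjusted p of 2.83e-05.

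Atp2a2 encodes SERCA2, the pump that refills the store (chr5:122453513-122502225, minus strand). It too was lower in TG in all 4 comparisons. In sedentary males its lowest, median and highest values were 16769, 19397 and 20774 CPM in nTG and 13712, 15757 and 18748 CPM in TG. Of the 9 TG libraries 7 were below all nTG libraries, and the change was -0.29 ± 0.06 with an edgeR adjusted p of 0.000133. In trained females it was at 18918, 19992 and 21713 CPM in nTG and 14933, 15993 and 17144 CPM in TG. The groups did not overlap, and the change was -0.34 ± 0.06, a level 21.2% lower, with an edgeR adjusted p of 2.72e-05. In trained males the values were 17558, 19056 and 20235 CPM in nTG and 13489.7, 17010.1 and 19184 CPM in TG. There 6 of the 8 TG libraries were below all nTG libraries, and the change of -0.18 ± 0.06 had an edgeR adjusted p of 0.019. Without trained TG male replicate 4, the lowest of its group, that change was -0.14 and the edgeR adjusted p 0.0673, and on the 2 groups alone the adjusted p was 0.0525. In sedentary females it was at 17282, 19131 and 20637 CPM in nTG and 15344, 16319.7 and 21127 CPM in TG, and the change of -0.18 ± 0.06 had an edgeR adjusted p of 0.0445. Replicate 4 of the sedentary TG females stood above all nTG libraries while the other 7 of its group were below all of them. The call in sedentary females was lost in 14 of the 16 fits that left out 1 library, and without replicate 4 the change was -0.24 with an edgeR adjusted p of 0.00303. This call was also lost with median-of-ratios size factors (edgeR adjusted p 0.0503) and on the 2 groups alone (0.142).

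Slc8a1 encodes the sodium-calcium exchanger NCX1 of the sarcolemma (chr17:81373105-81738377, minus strand), and it fell in TG in 3 of the 4 comparisons. In sedentary males it was at 702, 769.9 and 799 CPM in nTG and 538, 624 and 642 CPM in TG (lowest, median and highest). The groups did not overlap, and the change was -0.32 ± 0.06 with an edgeR adjusted p of 2.24e-05. In trained females it was at 778, 825 and 910.0 CPM in nTG and 651, 692 and 739.6 CPM in TG. These groups did not overlap either, with a change of -0.27 ± 0.06 and an edgeR adjusted p of 0.000653. Trained males, at 716, 837 and 972 CPM in nTG and 651, 723 and 868 CPM in TG, overlapped and changed by -0.20 ± 0.06, with an edgeR adjusted p of 0.0108. In sedentary females the values were 599.6, 696 and 880.3 CPM in nTG and 598, 654 and 776 CPM in TG, and the difference of -0.09 ± 0.06 did not pass, with an edgeR adjusted p of 0.434 and a 95% interval of -0.20 to 0.02.

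Casq2 encodes cardiac calsequestrin, the main calcium buffer of the lumen (chr3:102086415-102146514, plus strand), and its MEF2 match is in the printed window above. It fell in TG in both male comparisons and in trained females. In sedentary males it was at 457, 505 and 581 CPM in nTG and 414, 439 and 468 CPM in TG (lowest, median and highest). Only 2 of the 9 TG libraries reached the nTG range, and the change was -0.21 ± 0.05 with an edgeR adjusted p of 0.000806. In trained males the values were 499.8, 530.1 and 589.5 CPM in nTG and 450.2, 466 and 521 CPM in TG, a change of -0.19 ± 0.05 with an edgeR adjusted p of 0.00472. Trained females were at 475, 508 and 559 CPM in nTG and 413, 435 and 478 CPM in TG, with 5 of the 6 TG libraries below all nTG libraries. That change was -0.21 ± 0.05 with an edgeR adjusted p of 0.00179. In sedentary females the difference was -0.09 ± 0.05 with an edgeR adjusted p of 0.313.

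Pln encodes phospholamban, the inhibitor of the pump (chr10:53337667-53345987, plus strand). It fell in TG in sedentary males, where it was at 1798, 2107 and 2503 CPM in nTG and 1404, 1685 and 2051 CPM in TG (lowest, median and highest). Of the 9 TG libraries 6 were below all nTG libraries, and the change was -0.31 ± 0.08 with an edgeR adjusted p of 0.00404. In trained males the groups lay over each other, at 1909, 2156 and 2498 CPM in nTG and 1643, 2232 and 2587 CPM in TG. The difference there was 0.00 ± 0.08, with a 95% interval of -0.16 to 0.16. In sedentary females it was -0.15 ± 0.08 with an edgeR adjusted p of 0.344. Trained females were at 2031, 2188 and 2443 CPM in nTG and 1665, 1814 and 2508 CPM in TG, where 5 of the 6 TG libraries were below all nTG libraries and the other, replicate 6, was above all of them. The difference of -0.22 ± 0.08 had an edgeR adjusted p of 0.0696, and without replicate 6 it was -0.32 with an edgeR adjusted p of 0.00835. Pln lies within Cep85l, on its opposite strand, and whether counting used strand is not given in the sources used here, so reads of the 2 genes may not be separate. Genes of the table also lie on the opposite strand within Pln (Gm47644), Atp2a2 (Gm43361), Trdn (D830005E20Rik) and Ryr2 (Gm26956), and the same limit holds for them. On the same strand, other genes of the table lie within Casq2, Camk2d, Atp2a2 and Ryr2, where strand cannot separate the reads.

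Jph2 encodes junctophilin-2, which holds the reticulum close to the T-tubule (chr2:163336242-163397993, minus strand). It fell in TG in both trained comparisons. In trained males it was at 854, 956 and 1063 CPM in nTG and 752, 838 and 904 CPM in TG (lowest, median and highest). Of the 8 TG libraries 5 were below all nTG libraries, and the change was -0.21 ± 0.06 with an edgeR adjusted p of 0.00695. In trained females it was at 830.4, 952 and 1000.2 CPM in nTG and 660.2, 871 and 909 CPM in TG, a change of -0.18 ± 0.06 with an edgeR adjusted p of 0.0277. That call was lost without TG replicate 2, 4 or 6, with edgeR adjusted p of 0.0616, 0.0536 and 0.161, and without replicate 6, the lowest, the change was -0.12. It was also lost on the 2 groups alone, with an edgeR adjusted p of 0.0586. The differences in sedentary mice were -0.12 ± 0.06 in males and -0.05 ± 0.06 in females, with edgeR adjusted p of 0.128 and 0.718.

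Ryr2, the release channel itself (chr13:11553102-12106945, minus strand), passed in none of the 4 genotype comparisons. Its group medians ran from 4666 CPM in sedentary TG males to 5298 CPM in trained TG males, and all 8 groups overlapped. The mean difference over the 4 comparisons was -0.04 ± 0.03, with a 95% interval of -0.09 to 0.02 and an edgeR adjusted p of 0.318. Trdn encodes triadin, which ties the channel to calsequestrin (chr10:33080554-33476709, plus strand). It did not pass in any genotype comparison, with differences from -0.17 ± 0.07 in sedentary males to 0.03 ± 0.07 in trained males. Camk2d, the main calcium-calmodulin kinase of the heart and one that phosphorylates the channel and phospholamban (chr3:126596302-126846326, plus strand), was the member that passed with a higher mean in TG. Its groups overlapped in each comparison, at 146, 157 and 165 CPM in sedentary nTG females and 159.9, 169 and 190.0 CPM in sedentary TG females, for example. It passed in none of the 4 single comparisons, and its mean over them was 0.07 ± 0.02 with an edgeR adjusted p of 0.00243. Fkbp1b (chr12:4833174-4841591, minus strand) ranged from 0.0496 to 0.823 CPM over all libraries. Its mean difference of 0.31 ± 0.15 had a 95% interval of 0.02 to 0.60 and an edgeR adjusted p of 0.0943, and it did not pass at these few counts.

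Across the 4 comparisons the mean change was -0.38 ± 0.03 for Hrc, -0.25 ± 0.03 for Atp2a2, -0.22 ± 0.03 for Slc8a1, -0.18 ± 0.02 for Casq2, -0.17 ± 0.04 for Pln and -0.14 ± 0.03 for Jph2, all past the edgeR threshold. No overlap between the 2 genotypes was seen for Slc8a1 and Hrc in sedentary males, where 2.1% of all genes did not overlap. The same held for Hrc in trained males (1.82% of all genes) and for Hrc, Atp2a2 and Slc8a1 in trained females (2.57%). No member was free of overlap in sedentary females, where 0.52% of all genes were.

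**Figure D2:**
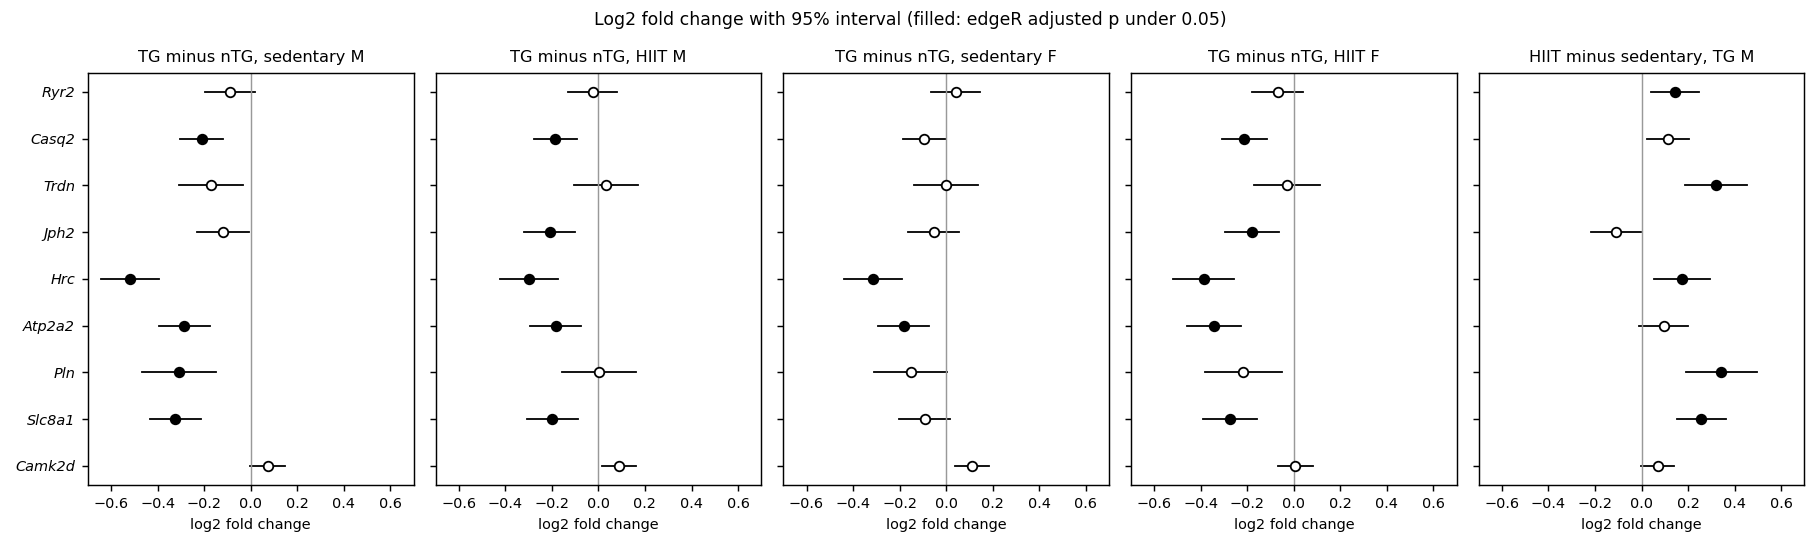
Log2 fold change (horizontal axis) with its 95% interval for 9 of the genes in the 4 genotype comparisons and in the training comparison of TG males. Fkbp1b is left out of the plot because its interval runs past the end of the axis in some panels. Filled points passed at an edgeR adjusted p under 0.05, and Hrc and Atp2a2 are filled and left of 0 in all 4 genotype panels.

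Markers of other cell types moved with genotype as well. The 6 fibroblast markers summed to 707 to 1005 CPM in sedentary nTG males and 784 to 1471 CPM in sedentary TG males, and 6, 3, 0 and 3 of the 6 rose in the 4 genotype comparisons, in the order used above. The 6 macrophage markers summed to 119.7 to 178 CPM and 163 to 299 CPM in the same 2 groups, and 6, 4, 0 and 4 of them rose. Of the 5 blood markers 5 fell in trained males and 0 passed in the other 3 comparisons, and in trained males they summed to 532 to 1087 CPM in nTG and 244 to 533 CPM in TG. Of the 4 atrial markers 0 passed in any of the 4, and their median sums were 90.9, 119, 75.6 and 69.8 CPM in nTG and 216, 114, 165 and 142 CPM in TG. The 8 cardiomyocyte markers had a median log2 fold change of -0.20, -0.15, -0.10 and -0.18, and 5, 4, 1 and 5 of them fell while 0, 1, 1 and 1 rose. Their median sum was lower in TG in sedentary males, at 117123 CPM in nTG and 114372 CPM in TG, and higher in the other 3, at 113560.0 and 117539 CPM in trained males, 115388 and 121138 CPM in sedentary females, and 114484 and 121702 CPM in trained females. The part of these markers in the results was not tested.

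Training was compared with sedentary life within each genotype and sex. The training and genotype comparisons share libraries, so their values are set side by side and not combined. In TG males 5 of the 10 members passed and all 5 rose, against 18% of all genes, and the members' median log2 fold change was 0.13, where that of all genes was 0.00. In the other 3 comparisons few genes passed. TG females had 0 members and 0 genes pass in edgeR (0% of all genes), with 0 members and 606 genes at an unadjusted p under 0.05, and DESeq2 and limma voom also passed 0 members. Males without the transgene had 0 members and 0 genes pass in edgeR (0%), with 1 member and 999 genes at an unadjusted p under 0.05, and 0 members in DESeq2 and limma voom. Females without the transgene had 1 member pass, against 0.148% of all genes, with 4 members and 2406 genes at an unadjusted p under 0.05. All 10 members had a positive difference there, with a median of 0.09, where that of all genes was 0.00.

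Slc8a1 rose with training in TG males from 538, 624 and 642 CPM to 651, 723 and 868 CPM (lowest, median and highest). All 8 trained libraries were above all 9 sedentary ones, but the share of all genes that separate so was not counted for training. The change was 0.26 ± 0.05 with an edgeR adjusted p of 0.00181. It was also the member that passed in nTG females, where it went from 599.6, 696 and 880.3 CPM to 778, 825 and 910.0 CPM. That change of 0.24 ± 0.05 had an edgeR adjusted p of 0.0392, and the call was lost in 10 of the 18 fits that left out 1 library, at up to 0.187. The call was also lost with the replicate block (edgeR adjusted p 0.0581) and on these 2 groups alone (0.152). The differences were 0.13 ± 0.06 in nTG males and 0.06 ± 0.06 in TG females, neither past the threshold.

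Pln rose with training in TG males from the values given above to 1643, 2232 and 2587 CPM. Of the 8 trained libraries 7 were above all sedentary ones, the exception being replicate 4, and the change was 0.34 ± 0.08, a level 26.9% higher, with an edgeR adjusted p of 0.00279. Trdn went from 94.5, 108 and 116 CPM to 111, 129 and 152 CPM in the same comparison. For this gene 7 of the 8 trained libraries were above all sedentary ones, and the change was 0.32 ± 0.07 with an edgeR adjusted p of 0.00195. Hrc changed by 0.17 ± 0.06 and Ryr2, from 4220.0, 4666 and 5804 CPM to 4557, 5298 and 5731 CPM, by 0.14 ± 0.05. Their edgeR adjusted p were 0.0393 and 0.0479, and leaving out 1 library ended the call in 11 of 17 fits for Hrc and in 12 of 17 for Ryr2. The call for Ryr2 was also lost with median-of-ratios factors (edgeR adjusted p 0.0547) and with the replicate block (0.0541), and for both genes it was lost without mitochondrially encoded genes (0.0653 for Ryr2 and 0.0513 for Hrc) and on these 2 groups alone (0.122 for each). Atp2a2 at 0.10 ± 0.05 and Casq2 at 0.11 ± 0.05 did not pass, with edgeR adjusted p of 0.22 and 0.0787. Jph2 had the opposite sign, -0.11 ± 0.05, with an edgeR adjusted p of 0.156.

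Phospholamban binds the pump directly, so Pln counts were also set against Atp2a2 counts within each library, a value that no scaling between libraries touches. The ratios were chosen with earlier results of these data known. They use the same counts as the tests above, so they restate those changes and are not separate evidence. In TG males Pln was 9.27%, 11.3% and 12.3% of Atp2a2 in sedentary libraries (lowest, median and highest) and 12.2%, 12.96% and 15.02% in trained ones. Of the 8 trained libraries 6 were above all 9 sedentary ones. The mean log2 ratio was 0.25 higher with training, with a two-sided exact permutation p of 0.000165, or 0.00395 after Benjamini-Hochberg adjustment over the 24 comparisons of 3 ratios. In the other 6 groups the median was between 10.8% and 11.7%. No other ratio comparison passed. The next smallest p was that of the genotype comparison in trained males for the same ratio, a difference of 0.18 with an exact p of 0.0127 and an adjusted p of 0.153, and without trained nTG male replicate 4 it was 0.22 with an adjusted exact p of 0.0131. The ratio of Slc8a1 to Atp2a2 and that of Fkbp1b to Ryr2 did not pass in any of the 8 comparisons, and the latter rests on few Fkbp1b counts.

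**Figure D3:**
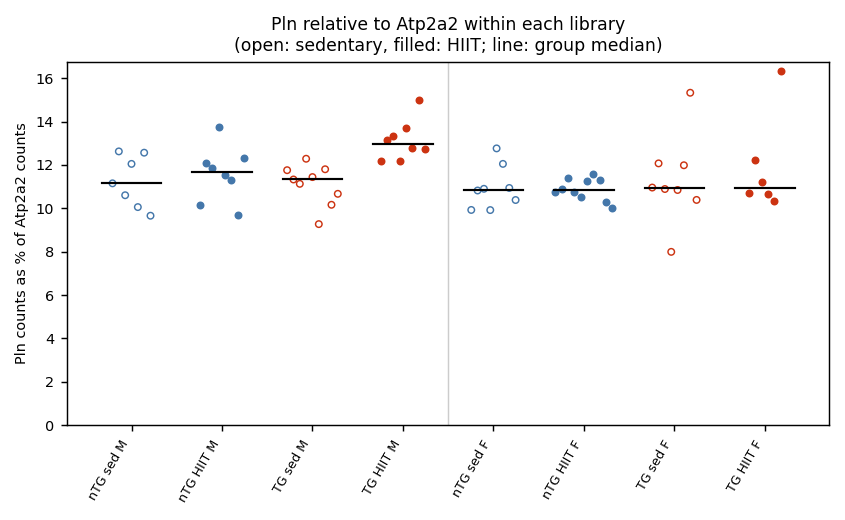
Pln counts as a percent of Atp2a2 counts in each library (vertical axis, starting at 0) by group, with a line at each group's median. The trained TG males lie between 12.2% and 15.02%, and 6 of the 8 are above the highest sedentary TG male at 12.3%.

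Other cell markers moved with training in TG males too. Of the 6 macrophage markers 4 fell, of the 6 fibroblast markers 2 fell and of the 5 blood markers 5 fell, while 0 of the 8 cardiomyocyte markers passed and their median was 0.04. The blood markers summed to 299 to 4860.2 CPM (median 562) in sedentary and 244 to 533 CPM (median 399) in trained TG males. The macrophage markers summed to 163 to 299 CPM (median 243) and 149 to 292 CPM (median 179). Their part in the rise of the calcium genes was not tested.

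Interaction terms tested whether the effect of training differed between genotypes, within each sex, or between sexes, in TG mice. Another term tested whether the effect of genotype differed between sexes in sedentary mice. In edgeR 0 members and 0 genes (0%) passed in any of the 4. At an unadjusted p under 0.05 there were 3 members and 2503 genes for genotype by training in males, 2 and 1093 in females, 2 and 1471 for genotype by sex in sedentary mice, and 6 and 3063 for training by sex in TG mice. For Pln the genotype by training term in males was 0.31 ± 0.11 with an edgeR adjusted p of 0.213. The training by sex term in TG mice was -0.33 ± 0.12 for Pln and -0.32 ± 0.10 for Trdn, lower in females, with edgeR adjusted p of 0.125 and 0.106. These results depended on the tool and on single libraries. DESeq2 passed 0 members in all 4 terms, while limma voom with sample quality weights passed Pln in the first (adjusted p 0.0498) and Pln and Trdn in the last (0.0253 and 0.0391). In edgeR, leaving out trained TG female replicate 6 gave -0.43 for Pln and -0.37 for Trdn in the last term, with adjusted p of 0.0231 and 0.0276. Leaving out trained TG male replicate 4 gave -0.38, -0.34 and, for Hrc, -0.27, each with an adjusted p of 0.0493 in edgeR. Between sedentary nTG males and females 0 members passed in edgeR, DESeq2 and limma voom, against 2.22% of all genes, with 3 members at an unadjusted p under 0.05.

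Of 66 other calcium-handling genes in 5 lists, 64 were measured. In TG against nTG, 9 rose and 13 fell in sedentary males, 2 and 12 in trained males, 2 and 2 in sedentary females, and 4 and 13 in trained females. The shares of all genes that passed in these comparisons were 20.6%, 14%, 4.37% and 14.8%. Among 20 genes of release and the junction, 6, 1, 1 and 3 rose and 4, 4, 1 and 2 fell in these comparisons. Tmem38a, the TRIC-A channel that carries the counter-current to calcium release, fell in all 4, by -0.17 ± 0.05 in sedentary males and -0.23 ± 0.05 in trained females. Casq1, calsequestrin of skeletal muscle, was at 2.13, 4.07 and 6.43 CPM in sedentary nTG males and 3.42, 5.98 and 15.3 CPM in sedentary TG males. It rose in sedentary males, trained males and trained females, by 0.83 ± 0.30, 0.81 ± 0.29 and 0.88 ± 0.30, with edgeR adjusted p of 0.0354, 0.0495 and 0.0348, opposite to Casq2. In sedentary females the difference was of like size, 0.92 ± 0.29, with an edgeR adjusted p of 0.0503. Ryr1, the release channel of skeletal muscle, was at 3.43, 3.84 and 5.84 CPM in sedentary nTG males and 3.84, 9.64 and 29.5 CPM in sedentary TG males. It rose there by 1.56 ± 0.29 and in trained females by 0.95 ± 0.29, and changed by -0.82 ± 0.27 with training in TG males. The 6 skeletal muscle markers of the list were not analysed here. Bin1, which shapes T-tubules, rose in sedentary males (0.52 ± 0.09) and trained females (0.36 ± 0.09), and Jph1 rose in sedentary males (0.16 ± 0.06) and sedentary females (0.21 ± 0.06). Cav3, caveolin of muscle, fell in 3 comparisons, and Tmem38b fell in both male ones.

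Of 13 genes of sarcolemmal entry and extrusion, 0 rose and 3, 3, 1 and 3 fell in TG, beside 20.6%, 14%, 4.37% and 14.8% of all genes that passed in either direction. The counts of the single lists are given as values and not as results about the lists. Cacna1c, the L-type channel that triggers release, fell in sedentary males (-0.15 ± 0.04) and trained females (-0.14 ± 0.05). Fxyd1, phospholemman, fell in both trained comparisons. Of 8 kinase and related genes, Camk2b rose in all 4, from 0.30 ± 0.08 to 0.61 ± 0.08. Its values in sedentary females were 14.9, 22.4 and 25.7 CPM in nTG and 24.96, 32.4 and 35.02 CPM in TG. Camk2a fell in both trained comparisons, Prkaca, the catalytic subunit of protein kinase A, in 3, and Pde3a, a phosphodiesterase, in 2, by -0.36 ± 0.07 in sedentary males and -0.39 ± 0.07 in trained females. Of 8 genes of mitochondrial calcium uptake, Mcu, the uniporter pore, and Letm1 each fell in 3 comparisons. Of 15 genes of uptake, luminal buffering and its regulators, 1 rose and 1 fell in sedentary males and 2 fell in trained females. Saraf, which limits store-operated entry, fell in both, by -0.18 ± 0.05 and -0.21 ± 0.05.

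With training in TG males 8 of the 64 genes rose and 6 fell, or 14 of 64 in all, a share near the 18% of all genes that passed, so the genes named here are given as values and not as a result about the lists. Among those that rose were Ppp1r3a (0.37 ± 0.08), Cacna2d1 (0.32 ± 0.06), Ppp1cb (0.31 ± 0.07), Tmem38b (0.22 ± 0.07), Asph, Atp2b1 and Ppp1cc. Ppp1cb and Ppp1cc are catalytic subunits of protein phosphatase 1, Ppp1r3a is a subunit that directs it to glycogen and the reticulum, and Cacna2d1 is an auxiliary subunit of the L-type channel. Those that fell were Ryr1 (-0.82 ± 0.27), Bin1 (-0.28 ± 0.09), Slc8b1 (-0.24 ± 0.07), Orai1 (-0.21 ± 0.06), Fxyd1 (-0.17 ± 0.06) and Stim2 (-0.16 ± 0.05). Stim2 and Orai1 are the sensor and the pore of store-operated entry, and Slc8b1 is the mitochondrial sodium-calcium exchanger.

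**Figure D4:**
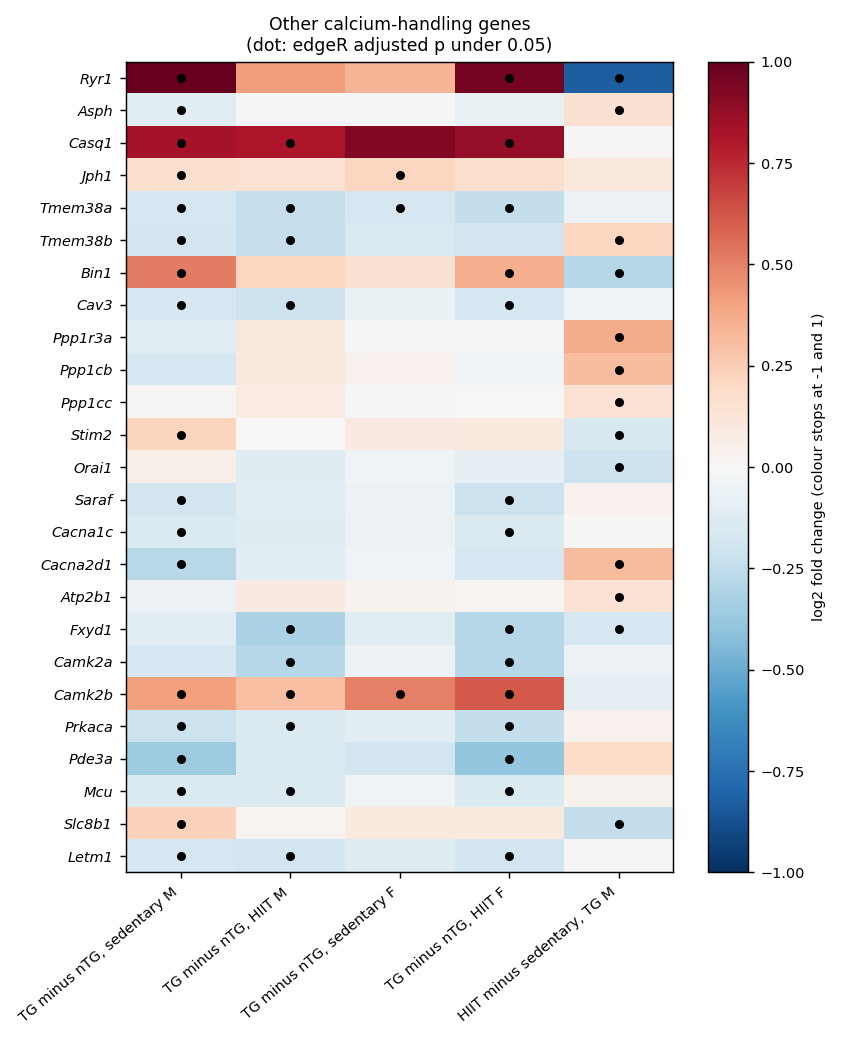
Log2 fold change (colour, which stops at -1 and 1) of 25 other calcium-handling genes (rows) in the 4 genotype comparisons and the training comparison of TG males (columns), where a dot marks an edgeR adjusted p under 0.05. Tmem38a carries a dot and is lower in all 4 genotype columns, Camk2b carries a dot and is higher in all 4, and Ryr1 in sedentary males lies past the end of the colour scale at 1.56.

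Within groups the members varied together to different degrees. After subtracting each group's mean from log2 CPM, Pearson's r over the 64 libraries was 0.82 between Pln and Trdn, 0.69 between Atp2a2 and Hrc, 0.61 between Ryr2 and Pln and 0.58 between Ryr2 and Atp2a2. Jph2 ran against Pln (-0.40) and Trdn (-0.39) and with Atp2a2 (0.43). These values come from the same libraries and so share depth and RNA composition, and they are given as a description. Outside the 10 genes, those most like Atp2a2 by the same measure were Stard7 (r = 0.80), Fam174b (0.80) and Fhod3 (0.78). Among those most like Ryr2 were Neo1 (0.75) and Ppip5k2 (0.74). The closest to Pln were Cox5a (0.91), Apoo (0.89) and Ndufs1 (0.88).

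**Figure D5:**
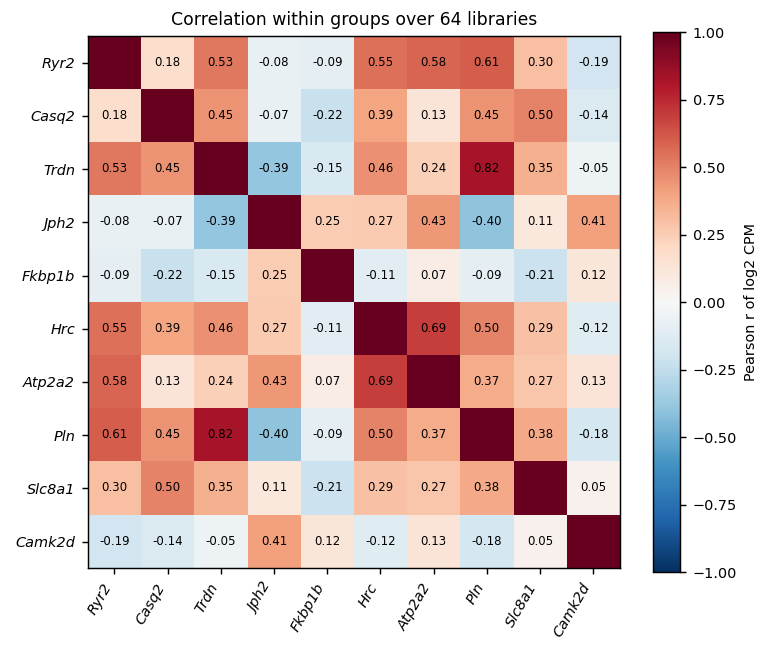
Pearson's r between the 10 genes within groups over the 64 libraries (colour and printed value), with the genes on both axes. The highest value is 0.82 between Pln and Trdn, and the lowest is -0.40 between Pln and Jph2.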

How the data were processed

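Hearts were profiled by bulk RNA sequencing of total RNA after depletion of ribosomal RNA, per the labels' protocols. The gene counts were deposited by the authors as whole reads per Ensembl gene, not normalised. The deposited lncRNA table holds the authors' expected counts, of which 45 rows had fractions, and it served only to match columns. The submitters' processing notes name cutadapt 2.3, FastQC 0.11.8, MultiQC 1.7, STAR 2.7.8a, RSEM 1.3.3 and GRCm38 (mm10), with no role or order. Counting settings and strand are not given in the sources used here. RNA per heart was not measured, so the values are relative levels within a library.

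Symbols, positions and merged exon lengths came from GENCODE M21 (GRCm38), which matched 16887 of the 16913 identifiers. Columns were matched by Pearson's r of log2 CPM (0.5 added to each count), centred per transcript, over transcripts with a mean of at least 20 counts. The match and the tests were checked on simulated data. Counts of all 64 libraries were fitted with edgeR 4.0.16 (R 4.3.3) in a model with 8 group means, TMM scaling and filterByExpr, which kept all genes, and Benjamini-Hochberg adjustment over all genes at 0.05. Ratios within a library were compared by two-sided exact permutation tests. From 5 lists of other calcium genes, those with a mean of at least 50 counts are named that passed in the same direction in at least 2 genotype comparisons, in the training comparison of TG males or in an interaction. A few genes that the naming rules take are not reported here. DESeq2 1.42.0, limma 3.58.1 (voom with sample quality weights), other scalings, other column orders, a replicate block, the groups of a comparison alone and leaving out each library were tried. The members, lists and ratios were chosen with earlier results of these data known. The 95% intervals come from the edgeR fit and reflect the spread between libraries.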

Additional observations from a re-analysis of the deposited data

Results flagged for a closer look

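A library was listed here when its gap to the nearest library of its group was large against the group's range (Dixon's 95% critical value). Over 104 groups of values, 13 were listed, and chance alone lists about 1 in 20 groups, or 5.2 here. The causes were not tested.

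In sedentary TG females, replicate 4 had Atp2a2 at 21127 CPM (the others lay at 15345 to 16710.1 CPM), Jph2 at 1079.9 CPM (746 to 856) and Camk2d at 189.96 CPM (159.9 to 174), the highest of the 8 each time. Replicate 7 of the same group had the highest Pln, 2562 CPM (1678 to 1904), and the highest Trdn, 161 CPM (97.3 to 114). In trained TG females, replicate 6 had Pln at 2508 CPM (1665 to 1832), and its Pln counts were 16.3% of its Atp2a2 counts (10.3% to 12.2%). In trained TG males, replicate 4 had the lowest Hrc, 462 CPM (643 to 731), and replicate 7 the highest Slc8a1, 868 CPM (651 to 737). In sedentary TG males, replicate 2 had the lowest Slc8a1, 538 CPM (589 to 642), and replicate 9 the lowest Camk2d, 149 CPM (172 to 184). In nTG mice, sedentary male replicate 7 had the highest Jph2, 1106 CPM (914 to 976), and trained female replicate 7 the lowest, 830.4 CPM (934 to 1000.2).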

How the results depend on the processing

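The number of members past the threshold in edgeR was 5, 5, 2 and 5 in the 4 genotype comparisons, in the order used above, 5 with training in TG males and 1 in nTG females. Of the 30 member results that passed, 30 remained past it, in the same direction, in DESeq2, in limma voom, without a filter and with columns matched on transcripts with a mean of at least 50 counts. With median-of-ratios size factors 28 remained, and without mitochondrially encoded genes 28. Of the 23 that could be refitted on the groups of the comparison alone, 17 remained. When libraries were left out one at a time, 24 remained in every fit.

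With columns by name the counts were 0 members and 0 genes in every genotype comparison, in their mean and with training in TG males, 1 member and 132 genes with training in nTG males, 0 and 42 in nTG females, and 0 genes for sex. In trained males the change there was 0.073 for Atp2a2, 0.0082 for Slc8a1, 0.119 for Hrc and 0.070 for Jph2, and the mean for Jph2 was 0.014. With training in TG males it was -0.0074 for Ryr2, -0.011 for Pln, -0.069 for Slc8a1 and -0.15 for Hrc, in nTG females -0.13 for Slc8a1, and the Pln to Atp2a2 difference was 0.078. These are signs opposite to the values above, except for the last.

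DESeq2 passed 4 genes with training in nTG males and 95 in nTG females, 1 for genotype by training in males, 1 for genotype by sex and 166 for training by sex. Limma voom passed 1269 genes in sedentary females, 3 with training in TG females, 1 in nTG males and 100 in nTG females, 300 with 1 member for genotype by training in males, and 927 with 2 members for training by sex. It also passed 6 member results that edgeR did not outside the interactions, Trdn in sedentary males and in the mean over the 4 genotype comparisons, Pln in both female genotype comparisons, and Atp2a2 and Casq2 with training in TG males. DESeq2 added Camk2d in sedentary females, and the groups alone added Trdn in sedentary males and Pln in trained females. Median-of-ratios factors left 1 member in sedentary females and 13 genes with training in nTG females. Without mitochondrially encoded genes 3 members passed with training in TG males and 13 genes in nTG females. On the groups of the comparison alone 1 member and 367 genes passed in sedentary females, 4 members in trained males (without Atp2a2), 5 in trained females (with Pln, without Jph2), 3 members with training in TG males, 1 gene in TG females, 1 in nTG males, 0 members and 0 genes in nTG females, and 145 genes for sex.

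Leaving out 1 library gave 5 to 6 members in sedentary males, 4 to 5 in trained males, 1 to 2 in sedentary females and 4 to 5 in trained females. With training it gave 3 to 5 members and 1702 to 4061 genes in TG males, 0 to 1 members and 0 to 62 genes in nTG females, and 0 to 1 genes in nTG males. It gave 0 to 1 genes for genotype by training in males, 0 to 3 members and 0 to 904 genes for training by sex, and 204 to 513 genes for sex. The Pln to Atp2a2 difference with training in TG males was 0.21 to 0.26 in these fits.

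With the replicate number as a block, 28 of the 30 remained, training in nTG females passed 0 members and 3 genes, training in nTG males 1 gene and genotype by sex 1 gene. Between different groups, same-numbered libraries had a median r of 0.01 over 205 pairs, 24 of them above 0.1. Differently numbered libraries had a median r of -0.0004 over 1582 pairs, 148 of them above 0.1. The libraries were not treated as paired, although a shared day or litter was not tested. Precision is limited by groups of 6 to 10 libraries and, for Fkbp1b, by few counts. The causes of these changes were not tested.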
